A study of Mus musculus with 4 samples.

Results

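The genes described here are those of glucose uptake, glycolysis, lactate handling and the hypoxia response, 34 chosen by name for their known roles. That choice was made with earlier results of these data known. Of the 34 symbols, 33 were found among the 23361 genes of the deposited table and all 33 passed the filter on low counts. The symbol Ca9 has no row of that name, and the mouse carbonic anhydrase row Car9 is given with the other genes of the pathways. They were measured in 4 RNA-seq libraries of cultured mouse mammary tumour cells (strain C3HeB/FeJ) from the Chaos3 model, whose tumours arise on a mutant Mcm4 helicase allele. The 2 libraries labelled High came from AB-C1 and AB-C2, clones of the tumour line 23116 MT that were transduced with a lentiviral Arid1a expression vector, 1 library per clone. The 2 libraries labelled Low were duplicates of the line 23116 MT itself, the control (titles UT-R1 and UT-R2). All 4 share the tumour line and its genetic background. For the oxygen, glucose and density of the cultures, nothing is stated in the labels.

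Glycolysis converts glucose to pyruvate, with hexokinase, phosphofructokinase and pyruvate kinase at its regulated steps, and tumour cells often send much of that pyruvate to lactate. The transcription factors HIF-1 and HIF-2 pair an oxygen-labile alpha subunit (Hif1a or Epas1) with Arnt. In oxygenated cells, prolyl hydroxylases of the Egln family mark the alpha subunits for destruction through Vhl. In low oxygen the factors bind hypoxia response elements and raise glucose transporters, most glycolytic enzymes, Pdk1 and genes such as Bnip3, Egln3, Adm and Vegfa. The alpha subunits are controlled mainly as proteins, which RNA counts do not measure.

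The libraries held 16523077 and 24307251 fragments in the High group and 13889858 and 28110812 in the Low group. Arid1a itself stood at 49.8 and 58.3 CPM in the libraries labelled High and at 82.2 and 94.2 CPM in those labelled Low (fragments scaled to a common library size after TMM normalisation). The counted gene was therefore not higher under the High label, and it is not known whether the vector's transcript was counted as Arid1a, so High and Low refer throughout to the labels of the libraries. The epithelial markers Krt8, Krt18, Krt14, Epcam and Cdh1 were present in all 4 libraries, and the 6 epithelial markers with Krt5 summed to 2057 and 4730 CPM in High against 2378 and 1641 CPM in Low. Krt14, Epcam and Cdh1 were higher in both High libraries than in both Low libraries, while Krt8, Krt18 and Krt5 overlapped. The 5 fibroblast markers (Pdgfra, Pdgfrb, Col1a1, Dcn, Lum) summed to 917 and 163 CPM in High against 3328 and 2932 CPM in Low, with Lum listed at 0 throughout. These markers did not move together. Col1a1, at 63.5 and 16.1 CPM in High against 2521 and 2133 CPM in Low, made up most of the Low sums. Dcn ran the other way, at 195 and 19.6 CPM in High against 4.19 and 5.45 CPM in Low, and Pdgfra overlapped, at 234 and 26.6 CPM in High and 79.3 and 97.3 CPM in Low. The 5 leukocyte markers summed to 22.6 and 28.3 CPM in High and 9.62 and 9.84 CPM in Low, nearly all of it Csf1r, with Cd3e at 0. The 4 endothelial markers summed to no more than 0.732 CPM in any library. The part of these marker differences in the results below was not tested. In bulk RNA, fewer cells expressing a gene and less RNA per cell cannot be told apart.

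No glycolysis or hypoxia gene passed the test between High and Low. By edgeR's quasi-likelihood test over all 12987 genes tested, 0 of the 33 genes rose and 0 fell at an adjusted p under 0.05, against 2.47% of all genes called (1.14% higher and 1.33% lower). At an unadjusted p under 0.05 there were 8 of 33, with Adm higher and Slc2a1, Hk1, Hk2, Slc16a3, Ndrg1, P4ha1 and P4ha2 lower in High, against 18.1% of all genes (9.92% higher and 8.16% lower). DESeq2 called 2 of the 33, Hk1 and Hk2, both lower (8.75% of all genes), and limma-voom called 0. Both High libraries lay below both Low libraries for 9 genes (27.3%, against 25.1% of all genes tested) and above both for 2 (6.06%, against 25.9%). Groups that did not overlap thus made up 11 of the 33, against 51% of all genes, and the other 22 overlapped. The median log2 fold change of the 33 genes was -0.19, against 0.03 for all genes tested, and 19 of the 33 lay below 0, against 47.8% of all genes. That median was -0.02 without High library 1 and -0.05 without Low library 1.

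**Figure D1:**
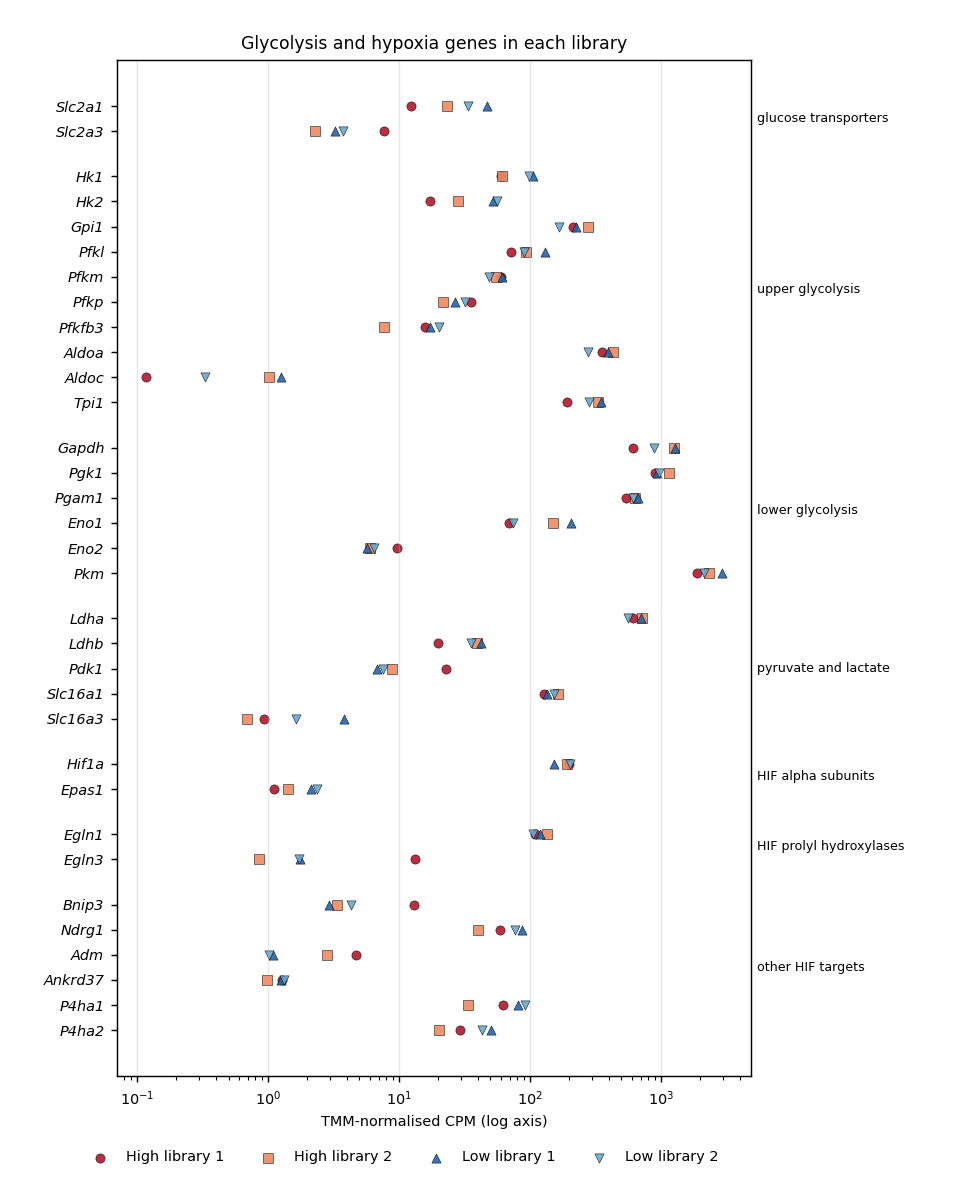
Level of each of the 33 genes in each library, as TMM-normalised CPM on a log axis, grouped by role, with 1 symbol per library. Most enzymes overlap between the groups, Slc2a1, Hk1 and Hk2 lie lower in both High libraries (circles and squares) than in both Low libraries (triangles), and Egln3, Bnip3, Pdk1 and Slc2a3 are set apart in High library 1 only.

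Compared per transcript length, the payoff end of the pathway dominated. The deposited FPKM (fragments per kilobase of transcript, scaled for depth), averaged over the 4 libraries, put 7 genes at 100 or more, 13 between 10 and 100 and 13 below 10. The highest was Pkm, which encodes pyruvate kinase (1029 FPKM), followed by the dehydrogenase gene Gapdh (968 FPKM), the phosphoglycerate kinase gene Pgk1 (615 FPKM) and the lactate dehydrogenase gene Ldha (452 FPKM). Pkm and Gapdh overlapped, at 835 to 1303 and 588 to 1231 FPKM over the 4 libraries, so their order is not fixed by these data. Pgk1 at 559 to 717 FPKM lay above Ldha at 390 to 496 FPKM in every library. Pgam1 (phosphoglycerate mutase), Aldoa (aldolase) and Tpi1 (triose phosphate isomerase) followed at 372, 280 and 204 FPKM. At the low end stood Slc16a3 (0.793 FPKM), Aldoc (0.448 FPKM) and Epas1 (0.339 FPKM).

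The 2 listed glucose transporters had fitted changes of opposite sign, and neither passed. Slc2a1 (GLUT1, the main basal glucose transporter of epithelial cells; chromosome 4, 119108711 to 119137983, mm10) was at 12.4 and 23.4 CPM in the High libraries against 46.6 and 33.8 CPM in the Low libraries. Both High values lay below both Low values, 2.23-fold lower by the fit, and the change missed the threshold (log2 fold change -1.16 ± 0.37 SE, edgeR adjusted p = 0.165). Slc2a3 (GLUT3, a high-affinity transporter) was at 7.65 and 2.28 CPM in High against 3.23 and 3.73 CPM in Low, High library 1 above and High library 2 below both Low libraries (log2 fold change 0.50 ± 0.65 SE, edgeR adjusted p = 0.737). Of the summed FPKM of this transporter pair, Slc2a3 made up 27.95% and 5.78% in High and 4.19% and 6.52% in Low.

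The hexokinases trap glucose in the cell as glucose 6-phosphate. Hk2, the inducible form common in tumours (chromosome 6, 82725025 to 82774454, mm10), was at 17.4 and 28.2 CPM in High against 52.2 and 56.0 CPM in Low. The groups were well apart, but the log2 fold change of -1.24 ± 0.30 (SE), 2.37-fold lower, missed the threshold (edgeR adjusted p = 0.0813). Its adjusted p ran from 2.36e-05 to 0.770 over 13 alternatives, of which 4 called it lower: DESeq2 (0.00636), no filter on low counts (0.0115, with 4.88% of all genes called), leaving out High library 1 (0.0219) and leaving out High library 2 (2.36e-05). Hk1, the constitutive form, was at 60.2 and 61.8 CPM in High against 105 and 99.1 CPM in Low. Its High libraries nearly coincided, and its log2 fold change was -0.74 ± 0.21 (SE, edgeR adjusted p = 0.125, and 0.0227 with DESeq2). Hk1 gave 82.4% and 74.6% of the hexokinase FPKM in High and 72.9% and 70.4% in Low.

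The rest of upper glycolysis overlapped between groups, except Pfkfb3. Gpi1, the glucose phosphate isomerase gene, was at 212 and 277 CPM in High and 224 and 166 CPM in Low. The phosphofructokinase subunits had log2 fold changes of -0.42 (Pfkl, liver type), 0.06 (Pfkm, muscle type) and -0.04 (Pfkp, platelet type), with edgeR adjusted p of 0.460, 0.922 and 0.964. Pfkl made up 39.0% and 49.7% of phosphofructokinase FPKM in High and 55.1% and 48.6% in Low. Pfkfb3, which makes the allosteric activator of phosphofructokinase, was at 15.9 and 7.73 CPM in High against 17.3 and 20.3 CPM in Low. Its High values lay below both Low values without passing (log2 fold change -0.67 ± 0.40 SE, edgeR adjusted p = 0.435). Aldoa (0.23) and Tpi1 (-0.28) had log2 fold changes within 1 SE of 0. Aldoc, a second aldolase, was at 0.117 and 1.02 CPM in High and 1.25 and 0.329 CPM in Low. It rested on 2 and 25 fragments in High and 17 and 9 in Low, too few at this depth to place it (log2 fold change -0.37 ± 1.16 SE, edgeR adjusted p = 0.904).

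**Figure D2:**
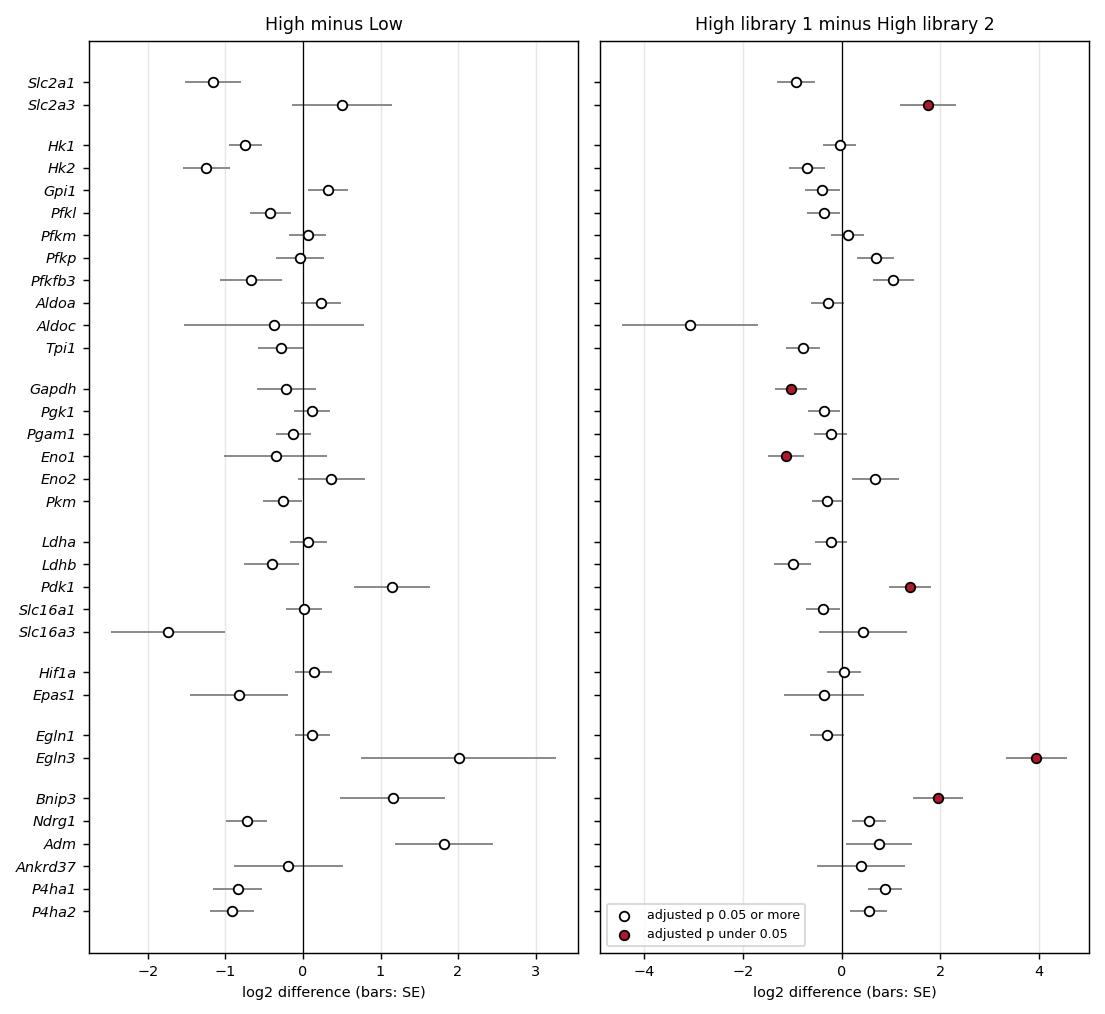
Fitted log2 difference (points) with its SE (bars) for each of the 33 genes, High minus Low on the left and High library 1 minus High library 2 on the right, filled where the adjusted p was under 0.05. No gene is filled on the left, and 6 are filled on the right, with Egln3 at 3.95 the farthest from 0.

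In lower glycolysis the groups overlapped for all 6 genes, and the log2 fold changes ran from -0.35 to 0.37. Pkm was at 1891 and 2323 CPM in High and 2926 and 2131 CPM in Low (log2 fold change -0.26 ± 0.25 SE, edgeR adjusted p = 0.633). Pgk1 and Pgam1 had log2 fold changes of 0.12 ± 0.23 and -0.12 ± 0.22 (SE), the narrowest errors of this group. Eno2, the neuronal-type enolase, was at 9.70 and 6.03 CPM in High and 5.73 and 6.44 CPM in Low, with its log2 fold change of 0.37 ± 0.43 (SE) the largest here (edgeR adjusted p = 0.704). Gapdh, often used as a constant reference gene, was at 615 and 1249.5 CPM in High and 1277 and 890 CPM in Low. It was the lowest in High library 1, and High library 2 lay between the Low duplicates.

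Eno1, the main enolase of most tissues, is uncertain in these counts. It was at 68.9 and 150 CPM in High and 206 and 73.8 CPM in Low, so that even the Low duplicates differed 2.80-fold (log2 fold change between groups -0.35 ± 0.67 SE, edgeR adjusted p = 0.838). A near-identical retrogene copy, Gm5506 (Eno1b in RefSeq), held 62.3 and 87.6 CPM in High and 130 and 90.4 CPM in Low, and fragments may be split between them. Summed, the pair was at 131 and 238 CPM in High and 336 and 164 CPM in Low, still overlapping. Eno3, the muscle-type enolase and not among the 34 genes, did rise: it was at 123 and 144 CPM in High against 46.4 and 38.8 CPM in Low. Both High libraries lay above both Low libraries, 3.14-fold higher (log2 fold change 1.65 ± 0.23 SE, edgeR adjusted p = 0.0144). Eno3 (chromosome 11, 70657202 to 70662513, mm10) made up 66.5% and 53.0% of the FPKM of Eno1, Eno2 and Eno3 in High and 21.0% and 37.8% in Low. With Gm5506 added to that sum, its share was 51.9% and 41.7% in High and 14.1% and 21.8% in Low. The call of Eno3 was lost without Low library 1 (adjusted p = 0.447) or Low library 2 (0.593) and kept in the other 11 alternatives.

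**Figure D3:**
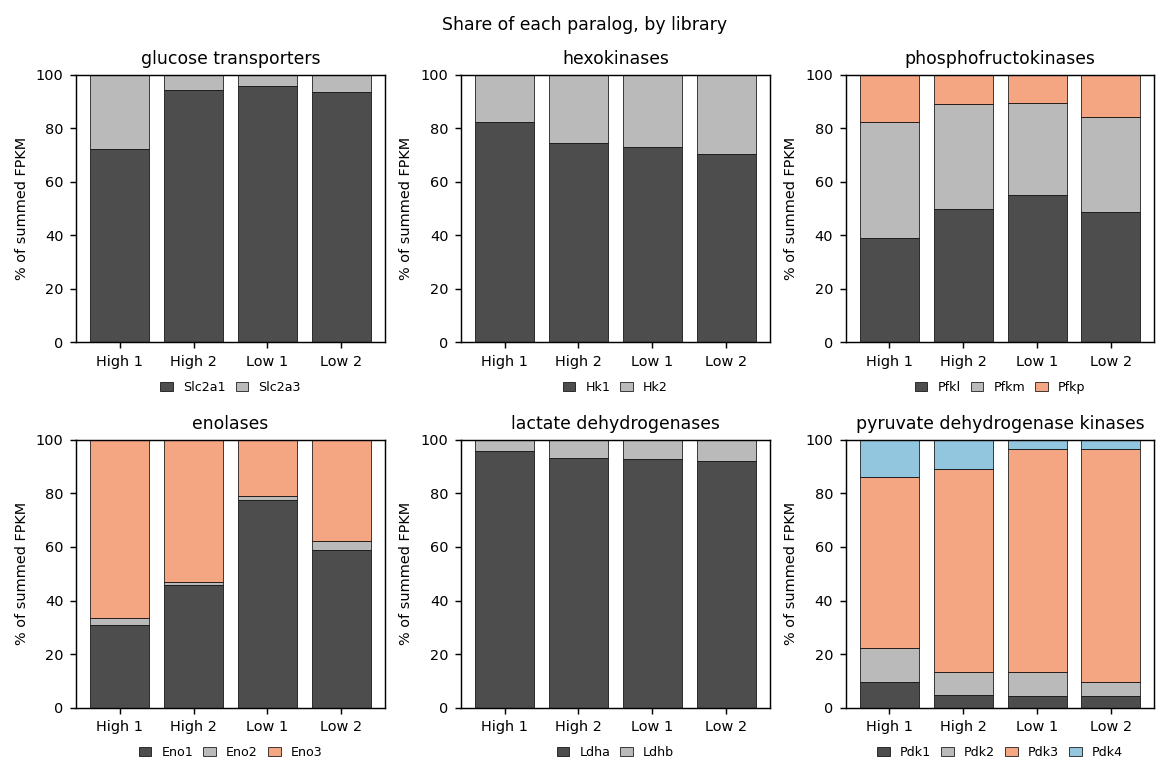
Share of each paralog in the summed FPKM of its step, in percent, as stacked bars for each library (High 1, High 2, Low 1, Low 2). Eno3 takes 66.5% and 53.0% of the enolase FPKM in the High libraries against 21.0% and 37.8% in the Low libraries (51.9% and 41.7% against 14.1% and 21.8% with the Eno1 copy Gm5506, which is not drawn, added), while Ldha stays above 92% in all 4.

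At the pyruvate branch, the lactate dehydrogenase genes overlapped between groups, and Pdk4, a kinase that inhibits pyruvate dehydrogenase, rose. Ldha, which reduces pyruvate to lactate, was at 616 and 714 CPM in High and 709 and 558 CPM in Low (log2 fold change 0.07 ± 0.24 SE, edgeR adjusted p = 0.914). Ldha gave 96.0% and 93.3% of the FPKM of Ldha and Ldhb in High and 92.8% and 92.3% in Low. Ldhb, the heart-type subunit, was at 19.7 and 39.1 CPM in High and 42.2 and 35.8 CPM in Low. Pdk1, another kinase of that enzyme and a HIF-1 target, was at 23.1 and 8.79 CPM in High against 6.76 and 7.61 CPM in Low. Both High values lay above both Low values, the first by far, and the change missed the threshold (log2 fold change 1.14 ± 0.49 SE, edgeR adjusted p = 0.281). Its relative Pdk4, induced by fasting and fatty acids, rose 4.78-fold, with 21.4 and 13.7 CPM in High against 3.45 and 3.88 CPM in Low (edgeR adjusted p = 0.0317). Limma-voom missed Pdk4 (0.0502), as did the crossed replicate block (0.0754) and the fits without Low library 1 (0.620) and Low library 2 (0.689). By FPKM, Pdk3 was the main kinase, with 64.0% and 75.6% of the 4 kinases in High and 83.5% and 87.2% in Low.

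Of the lactate transporters, Slc16a1 (MCT1) was at 128 and 165 CPM in High and 136 and 154 CPM in Low. Slc16a3 (MCT4, the hypoxia-inducible exporter) was scarce, at 0.935 and 0.692 CPM in High against 3.82 and 1.65 CPM in Low. Its High values were below both Low values, but rested on 16 and 17 fragments against 52 and 45, and the change missed the threshold (log2 fold change -1.73 ± 0.73 SE, edgeR adjusted p = 0.270).

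Of the oxygen-sensing genes, Hif1a, Arnt, Vhl and Egln1 had log2 fold changes smaller than their SE. Hif1a was at 199 and 191 CPM in High and 152 and 202 CPM in Low, with a log2 fold change of 0.14 ± 0.23 (SE, edgeR adjusted p = 0.810). Epas1, which encodes HIF-2 alpha, was at 1.11 and 1.42 CPM in High against 2.13 and 2.38 CPM in Low, on 19 and 35 fragments against 29 and 65. Its High values lay below both Low values without passing (log2 fold change -0.83 ± 0.63 SE, edgeR adjusted p = 0.541). By FPKM, Hif1a was at least 98.8% of the alpha-subunit pair in every library. Arnt and Vhl had log2 fold changes of -0.03 ± 0.32 and 0.02 ± 0.24 (SE). The High libraries of Arnt lay on either side of the Low libraries, at 89.2 and 48.6 CPM against 65.4 and 75.6 CPM. Arnt and Vhl were 2 of 6 further HIF pathway regulators tested, and their groups overlapped. The other 4, Cited2, Arnt2, Egln2 and Hif1an, were higher in both High libraries than in both Low libraries (66.7%, against 25.9% of all genes). None of them passed, and Cited2 had the largest log2 fold change, 0.99 ± 0.33 (SE, edgeR adjusted p = 0.190). Egln1 (PHD2, the main oxygen sensor) was at 110 and 135 CPM in High and 120 and 106 CPM in Low.

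Egln3 (PHD3), a hydroxylase that is itself a strong HIF target, behaved otherwise. It was at 13.3 and 0.855 CPM in High against 1.76 and 1.72 CPM in Low, on 227 and 21 fragments against 24 and 47. High library 1 was far above, and High library 2 below, the closely matched Low duplicates, so the High-minus-Low log2 fold change of 2.01 ± 1.25 (SE) had the widest SE of the 33 genes (edgeR adjusted p = 0.480) and turned to -1.02 without High library 1. Egln3 gave 8.07% and 0.521% of the FPKM of the 3 prolyl hydroxylases in High and 1.17% and 1.43% in Low.

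Among the other HIF targets, the collagen prolyl hydroxylases and Ndrg1 were lower and Adm higher in High, none past the threshold. P4ha1 and P4ha2 encode catalytic subunits that hydroxylate procollagen. P4ha1 was at 62.4 and 33.8 CPM in High against 80.4 and 91.8 CPM in Low. P4ha2 was at 29.4 and 20.1 CPM in High against 50.2 and 43.0 CPM in Low. Their log2 fold changes were -0.84 ± 0.32 and -0.91 ± 0.28 (SE), with edgeR adjusted p of 0.232 and 0.155. Ndrg1, a stress and differentiation gene, was at 59.2 and 40.3 CPM in High against 87.2 and 77.2 CPM in Low (log2 fold change -0.72 ± 0.26 SE, edgeR adjusted p = 0.211). All 3 genes had both High libraries below both Low libraries. Adm, which encodes the vasodilator peptide adrenomedullin, was at 4.73 and 2.81 CPM in High against 1.10 and 1.02 CPM in Low, 3.53-fold higher (log2 fold change 1.82 ± 0.63 SE, edgeR adjusted p = 0.192). Bnip3, a mitophagy receptor, was at 12.97 and 3.34 CPM in High and 2.94 and 4.32 CPM in Low, high in High library 1 alone (log2 fold change 1.16 ± 0.68 SE, edgeR adjusted p = 0.433). Ankrd37 had 17 to 36 fragments in each library and a log2 fold change of -0.19 ± 0.70 (SE).

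The High libraries, which come from separate clones, were then set against each other, 1 library against 1, in a fit whose spread comes from the Low duplicates alone. The test therefore assumes that a single High library varies like those duplicates, which may be technical, and it compares these libraries and not clones in general. Over all genes, the High pair had a biological coefficient of variation of 42.8%, against 17.3% for the Low pair. Of the 33 genes, 6 (18.2%) passed at an adjusted p under 0.05, against 10.9% of all 12987 genes (6.47% higher and 4.46% lower in High library 1). Egln3, Bnip3, Slc2a3 and Pdk1 were higher and Gapdh and Eno1 lower in High library 1. Egln3 was 15.4-fold higher in High library 1 (log2 difference 3.95 ± 0.62 SE, edgeR adjusted p = 1.44e-08), Bnip3 3.88-fold (adjusted p = 0.00194), Slc2a3 3.35-fold (0.0219) and Pdk1 2.62-fold (0.0134). Gapdh was 2.03-fold lower (log2 difference -1.02 ± 0.32 SE) and Eno1 2.18-fold lower, with fragments of Eno1 possibly split with its copy. For Eno1 the Low duplicates themselves differed 2.80-fold, so its difference between the High libraries lies within the spread of those duplicates. DESeq2 called 2 of the 33, Egln3 (adjusted p = 3.48e-05) and Gapdh (0.0284), against 7.74% of all genes. Aldoc had a log2 difference of -3.06 ± 1.38 (SE) and missed the threshold (edgeR adjusted p = 0.155). Which of the libraries is AB-C1 is not given in the table. Hif1a had a log2 difference of 0.06 ± 0.35 (SE) between the High libraries. Slc16a3, Adm and Ankrd37 had log2 differences of 0.43 ± 0.89, 0.75 ± 0.67 and 0.39 ± 0.90 (SE), errors too wide to tell whether they differed. Fibroblast markers also differed between these libraries, at 917 CPM in High library 1 and 163 CPM in High library 2. Epithelial markers differed the other way, at 2057 CPM in High library 1 and 4730 CPM in High library 2. The part of these marker differences was not tested.

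Spread was also read within each pair. The larger CPM was over 2 times the smaller for 8 of the 33 genes within the High pair, against 18.9% of all genes tested. It was over 2 times the smaller for 3 within the Low pair (Aldoc, Eno1 and Slc16a3), against 5.28% of all genes tested. Setting each High library alone against the same Low duplicates gave different calls, and these fits share the Low libraries. Without High library 2, 9 of the 33 genes were called by edgeR (18.8% of all genes): Egln3, Bnip3, Pdk1 and Adm higher and Slc2a1, Hk2, Gapdh, Eno1 and Ldhb lower. Without High library 1, 6 were called (17.1% of all genes), all lower: Hk2, Pfkfb3, Slc16a3, Ndrg1, P4ha1 and P4ha2. Without either Low library, 0 of the 33 and 0 of all genes were called, with 1004 and 840 of all genes at an unadjusted p under 0.05.

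The upstream sequences of 5 genes are shown as examples, and none of the 5 passed between High and Low. Egln3, Bnip3 and Pdk1 were set apart in High library 1, and Slc2a1 and Hk2 were lower in both High libraries. Each sequence is the 250 bases before the RefSeq start (GRCm38.p6, the most upstream RefSeq start of the gene), 5′ to 3′ on the gene's strand. Capitals mark the hypoxia-response core ACGTG and its variant GCGTG on either strand. Upstream refers to that RefSeq start, and the windows of Slc2a1 and Bnip3 reach past their starts in GENCODE M21 (119108711 and 138909519). The ACGTG marked for Slc2a1 spans its GENCODE start.
Egln3 (chr12:54203875-54204124, minus strand): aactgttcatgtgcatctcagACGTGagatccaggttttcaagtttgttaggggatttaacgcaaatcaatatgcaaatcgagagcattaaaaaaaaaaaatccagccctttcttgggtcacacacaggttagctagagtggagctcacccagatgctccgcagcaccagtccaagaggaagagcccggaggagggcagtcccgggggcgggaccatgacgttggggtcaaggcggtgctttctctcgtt
Bnip3 (chr7:138909507-138909756, minus strand): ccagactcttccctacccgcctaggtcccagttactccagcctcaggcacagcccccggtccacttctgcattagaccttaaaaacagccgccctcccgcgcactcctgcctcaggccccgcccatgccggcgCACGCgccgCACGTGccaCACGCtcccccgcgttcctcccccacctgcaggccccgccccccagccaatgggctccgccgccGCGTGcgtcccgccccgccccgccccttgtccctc
Pdk1 (chr2:71872974-71873223, plus strand): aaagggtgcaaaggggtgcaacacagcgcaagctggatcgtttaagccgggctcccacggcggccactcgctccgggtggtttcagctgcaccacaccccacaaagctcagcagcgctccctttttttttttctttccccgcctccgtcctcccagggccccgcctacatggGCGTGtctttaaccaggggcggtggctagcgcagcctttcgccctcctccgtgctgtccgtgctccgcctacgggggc
Slc2a1 (chr4:119108495-119108744, plus strand): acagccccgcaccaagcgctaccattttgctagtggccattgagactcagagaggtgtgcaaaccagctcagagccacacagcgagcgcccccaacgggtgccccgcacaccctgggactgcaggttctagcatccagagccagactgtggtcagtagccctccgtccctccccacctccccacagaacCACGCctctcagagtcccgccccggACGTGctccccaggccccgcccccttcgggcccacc
Hk2 (chr6:82774455-82774704, minus strand): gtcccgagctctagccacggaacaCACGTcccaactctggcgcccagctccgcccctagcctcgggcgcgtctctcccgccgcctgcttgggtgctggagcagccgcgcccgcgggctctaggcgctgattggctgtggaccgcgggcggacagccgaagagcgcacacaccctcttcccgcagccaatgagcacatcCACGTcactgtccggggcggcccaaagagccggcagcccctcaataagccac
ACGTG or its complement occurs once upstream of Egln3, 2 times in Bnip3 (both strands of a single palindrome) and 2 times in Hk2, once in Slc2a1 and not in the Pdk1 window, which holds a single GCGTG. At least 1 of the motifs is in 24 of the 30 windows found for the listed genes (80%), against 38.6% of 27025 gene windows. Many of these genes were listed because they are known HIF targets, and that set of all windows includes non-coding genes, so no test is attached. A match of these letters is a description and not a shown binding site. Among the 5 genes shown, ACGTG was upstream of Egln3 and Bnip3, higher in High library 1, and of Hk2 and Slc2a1, lower in both High libraries. Pdk1, also highest in High library 1, had GCGTG only. These genes were picked after their values were seen, and a link between motif and direction was not tested.

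Of 76 further genes of the same pathways, 75 were in the table, 58 passed the filter, and 2 rose and 2 fell (6.90% of those tested, against 2.47% of all genes). The list was drawn up with earlier results of these data known, so its share of calls is a description and not a test. The risers were Eno3 and Pdk4, above. Vegfa, the angiogenic growth factor and a classical HIF target, fell 2.68-fold, at 67.4 and 86.9 CPM in High against 215 and 199 CPM in Low (edgeR adjusted p = 0.0277). Slc2a10 (GLUT10) fell 43.5-fold by the fit, at 0.117 and 0.163 CPM in High against 6.68 and 6.22 CPM in Low (edgeR adjusted p = 0.00976), with only 2 and 4 fragments behind the High values. All 4 calls were lost without either Low library, and those of Vegfa and Slc2a10 were kept in the other alternatives apart from the crossed replicate block.

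**Figure D4:**
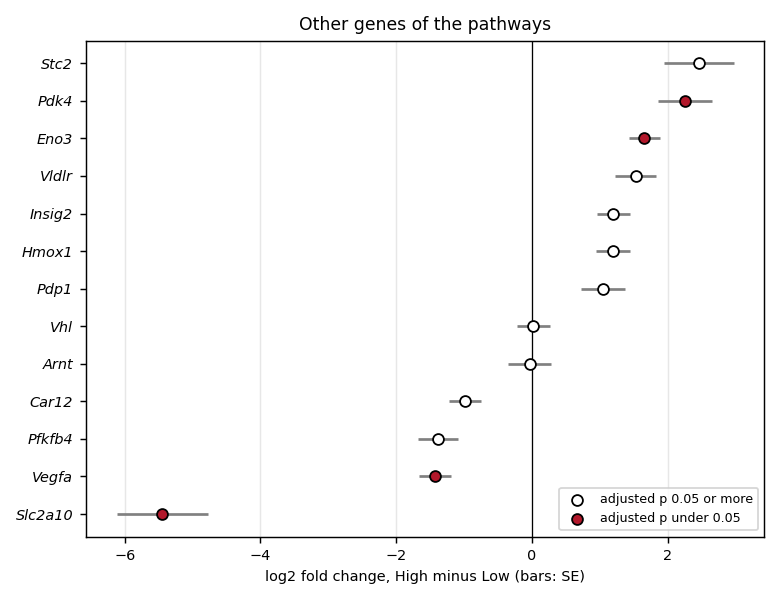
Log2 fold change, High minus Low (points), with its SE (bars) for 13 further genes of the pathways, filled where edgeR's adjusted p was under 0.05. Pdk4 and Eno3 are filled to the right of 0 and Vegfa and Slc2a10 to the left.

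The next genes in order of p did not pass. Vldlr (log2 fold change 1.53), the sterol-sensing regulator Insig2 (1.20), the secreted hormone Stc2 (2.45), the haem oxygenase Hmox1 (1.19) and the pyruvate dehydrogenase phosphatase Pdp1 (1.05) were higher in both High libraries than in both Low libraries, with edgeR adjusted p from 0.0515 to 0.155. Pfkfb4 (-1.38), a relative of Pfkfb3, and the carbonic anhydrase Car12 (-0.99) were lower in both, with edgeR adjusted p of 0.0604 and 0.0762. Of the 22 further HIF targets tested, 10 had a log2 fold change above 0 and 12 below. Car9 had 0 and 37 fragments in High and 17 and 19 in Low. In High library 1 it was at least 8.6-fold lower than in High library 2, taking 3 fragments as the floor. The median log2 fold change of the 58 genes was 0.16. In the comparison of High library 1 with High library 2, 4 of the 58 passed (6.90%, against 10.9% of all genes), among them the lipase inhibitor Angptl4 higher, and the lipid droplet gene Plin2 and Car9 lower, in High library 1.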

How the data were processed

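The 4 libraries of mouse mammary tumour cells were made from 500 ng of total RNA with a directional NEBNext kit, per the labels' protocols. Cutadapt 1.5, TopHat2 2.0.13 and Cuffdiff 2.2.1 were used with mm10, per the submitters' processing notes. Not given in the sources used here are the annotation and strand setting. Exons of 12 of the 33 genes overlap a gene on the other strand, and those of 3 (Hif1a, Pfkm and Pkm) overlap a gene on the same strand. Pseudogenes are named after 5 of the 33 (GENCODE M21), so fragments of all these genes may be shared. Per the file headers, the authors' estimated counts of fragments are in the deposited table, of which 99.18% were whole within 1e-06. The authors' FPKM and a scaled signal (fragments times a factor per library), per the file headers, are in the same table. The scaled signal served only to read those factors, 0.729 to 1.46. None of the listed genes had a failed status. No sample column was left unused (0).

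Counts were rounded and tested with edgeR 4.0.16 (R 4.3.3, limma 3.58.1): TMM, smallest count 10, robust quasi-likelihood test, two-sided, Benjamini-Hochberg over 12987 genes at 0.05, with 2 residual degrees of freedom. The High libraries were compared in a fit of 3 groups with 1 residual degree of freedom. DESeq2 1.42.0, limma-voom, limma on log2(FPKM + 1) and on log2(FPKM + 0.1), RLE scaling, other count filters (none, smallest count 50), a replicate block and leaving out each library were alternatives. Of these fits, only the edgeR fit of High against Low was checked on simulated counts, with spreads below that of the High pair. An exact permutation test of 2 against 2 libraries has 0.333 as its smallest p, and none was run. Library numbers only name libraries. Whether the Low duplicates were separate cultures is not in the labels, so the p-values cover only the spread of these libraries, which may be technical, and clone and Arid1a add-back cannot be told apart. The floor of 3 fragments was 0.110 to 0.220 CPM and covers counting error only.

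The genes and lists were chosen with earlier results of these data known. Every listed gene is named. Full values are given for those with an unadjusted p under 0.05, the largest change in each role, Slc2a1, Hk2, Pkm, Ldha, Hif1a and Epas1, and the 6 with the largest difference between the High libraries. Of the further genes, those past the threshold, the 8 next by p, Vhl, Arnt, Vegfa and Car9 are named, except 1 gene that is not reported here. Gapdh, Gpi1, Ldhb, Slc16a1, Egln1, Pfkfb3, Angptl4, Plin2, Cited2, Arnt2, Egln2, Hif1an and the genes whose promoters are shown were detailed after their values were seen.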

Additional observations from a re-analysis of the deposited data

How the results depend on the processing

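With 2 libraries a group, the count of calls varied with the test, the filter, the block and the library left out. All genes called numbered 321 in the reported fit, 814 with no filter on low counts, 1136 with DESeq2, 94 with the crossed replicate block and from 0 to 2446 with a library left out. Of the 33 glycolysis and hypoxia genes, edgeR called 1 with no filter (Hk2), DESeq2 called 2, and the fits with a library left out called from 0 to 9. Among the further genes of the pathways, 4 were called in the reported fit, 10 with no filter, 8 with smallest count 50, 11 with DESeq2, 1 with the crossed replicate block and from 0 to 20 with a library left out. The median log2 fold change of the 33 genes was -0.0717 with smallest count 50 and from -0.238 to -0.0202 with a library left out, and that of the further genes was 0.117 on log2(FPKM + 1) and from 0.0688 to 0.154 with a library left out. Between the High libraries, DESeq2 called 2 of the 33 genes against 6 in the reported fit. Without a Low library, the residual spread came from the High pair alone (biological coefficient of variation 42.8%). Without a High library, it came from the Low pair alone (17.3%). The part of this spread, of the fewer libraries and of the added low-count genes in these counts was not tested.

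The replicate numbers do not pair the samples. Their deviations from the group means correlated at -0.139, and the crossed pairing was added after seeing the data. With the replicate number as a block, 469 of all genes, 0 of the 33 genes and 5 of the further genes were called. RLE scaling moved the median of all genes by -0.01 and left these counts unchanged. None of the 4 pathway genes called in the reported fit (Eno3, Pdk4, Vegfa and Slc2a10) changed direction in the 13 alternatives. Their groups did not overlap, so leaving out a library could not have reversed them, and this is no test of robustness. Genes near the floor (Aldoc, Epas1, Slc16a3, Ankrd37, Car9, and Egln3 outside High library 1) are limited by depth.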
